A study of Mus musculus with 18 samples.

Results

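The genes described here are 10 transcriptional targets of the tumour suppressor p53 or genes used as readouts of DNA damage: Cdkn1a, Mdm2, Ccng1, Phlda3, Trp53inp1, Gdf15, Bbc3, Bax, Btg2 and Aen. They were chosen by name, and every array probe assigned to them was read, which gave 13 of the 39429 probes on the array. All 13 were among the 35739 probes kept after the filter on dim signals, and the 10 genes were among 19598 genes with a kept probe. Liver RNA came from 18 male C57BL/6 mice that started a diet with 10% fat (LFD) or 60% fat (HFD) when they were 6 weeks old. After 10 weeks on the diet, the LFD-MTX50 and HFD-MTX50 mice received methotrexate by intraperitoneal injection at 50 mg/kg in 5 rounds, and their livers were taken 1 week after the last round. The LFD and HFD mice were not treated. Each untreated group held 4 mice and each treated group 5, with 1 array per mouse. The livers were therefore not sampled in the hours after a dose.

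p53 is a transcription factor that is stabilised when DNA is damaged or when replication is disturbed, and its targets halt the cell cycle, repair DNA, reset metabolism or start cell death. Mdm2 is both a target and the ubiquitin ligase that degrades p53, so the pathway limits itself. Methotrexate is an antifolate that blocks dihydrofolate reductase and thereby the supply of thymidylate and purines for DNA synthesis. Most hepatocytes of an adult liver do not divide, whereas bone marrow and gut cells do.

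The stretches upstream of the genes are shown because a p53 response is read out through DNA elements near these promoters. RefSeq promoter windows (assembly GRCm38.p6) were matched by gene symbol for 9 of the 10 genes, in 14 windows because some genes have several starts. Trp53inp1 had no match. The windows were searched on both strands for the 10-base p53 decamer and for a full p53 element, which is 2 decamers 0 to 13 bases apart with at most 1 mismatch in each. A decamer without mismatch was present in 6 windows of 5 genes (Cdkn1a, Mdm2, Ccng1, Bax and Aen), against 8.36% of all 32851 windows in the table. A full element was present for 2 genes, Cdkn1a and Ccng1, against 2.71% of all windows. Capitals below mark these matches, and each sequence reads 5′ to 3′ towards the start of the gene.
Cdkn1a, chr17:29090729-29090978, plus strand, the 250 bases before the start: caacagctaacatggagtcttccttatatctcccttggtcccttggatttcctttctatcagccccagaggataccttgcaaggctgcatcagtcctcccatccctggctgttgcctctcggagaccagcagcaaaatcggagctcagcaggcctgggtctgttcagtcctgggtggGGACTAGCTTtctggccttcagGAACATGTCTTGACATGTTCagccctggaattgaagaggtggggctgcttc
Mdm2, chr10:117710759-117711008, minus strand, the 250 bases before the start: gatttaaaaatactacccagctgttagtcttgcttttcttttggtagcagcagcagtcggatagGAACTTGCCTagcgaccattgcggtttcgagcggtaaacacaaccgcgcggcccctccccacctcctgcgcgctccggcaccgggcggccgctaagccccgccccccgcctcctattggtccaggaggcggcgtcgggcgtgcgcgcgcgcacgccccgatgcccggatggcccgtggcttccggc
Ccng1, chr11:40755442-40755501, minus strand: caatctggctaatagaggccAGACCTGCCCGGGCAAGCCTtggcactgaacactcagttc
Bax, chr7:45467070-45467119, minus strand: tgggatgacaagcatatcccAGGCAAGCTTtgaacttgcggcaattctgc
The Cdkn1a matches began 73 and 51 bases before 1 of its starts and the second ran into a further decamer with 1 mismatch. The window of the other Cdkn1a start held no match. The Mdm2 decamer began 186 bases, that of Ccng1 185 bases and that of Bax 201 bases before the start. In Aen the decamer lay 121 bases before 1 start and 10 bases after another. The windows of Phlda3, Btg2, Bbc3 and Gdf15 held none. A match to these letters describes the sequence and no binding was measured.

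Levels are given as the log2 intensity of a probe minus the 75th percentile of its array, so that 1 unit is a 2-fold difference. Levels of different probes are not comparable with each other. The 75th percentile ranged from 1203 to 2263 intensity units over the arrays, and 83.9 to 90.6% of probes lay well above background. The 13 probes of the 10 genes lay well above background on all 18 arrays. The tissue label was borne out by the 6 hepatocyte markers, whose summed level was 8.76 to 9.47 on every array. The arrays lay on 6 slides. The LFD arrays filled 1 slide and the LFD-MTX50 arrays lay on 2 others, so slide and group cannot be told apart in comparisons with LFD. One slide carried HFD mice 3 and 4 together with mice 1 and 2 of HFD-MTX50. Mice 1 and 5 of HFD-MTX50 had the lowest median correlations to the other arrays of their group, 0.979 and 0.978, against 0.981 to 0.993 for the other 16 arrays. In whole liver, a fall in the number of cells of a type and less RNA per cell cannot be told apart.

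Few of the genes separated the groups, and Mdm2 was the only 1 whose brighter or single probe passed an adjusted p of 0.05 in any comparison. Tests were limma fits of the 4 groups in 1 model, adjusted by Benjamini-Hochberg over all kept probes, and a gene with several probes was counted on its brightest. In LFD-MTX50 vs LFD, 0 of the 10 genes passed, where 28.1% of all genes did. At an unadjusted p below 0.05, 2 of them passed (Cdkn1a and Mdm2), against 41.5% of all genes. In HFD-MTX50 vs HFD, 1 of 10 passed (Mdm2), against 11% of all genes. In HFD vs LFD, 1 of 10 passed (Mdm2 again), against 28.3% of all genes. The effect of methotrexate differed between the diets for 1 of 10 (Mdm2), against 26.8%. At an unadjusted p below 0.05 the counts in these 3 comparisons were 3 (Mdm2, Bbc3 and Bax), 1 (Mdm2) and 2 (Mdm2 and Bbc3), against 30.8%, 42.4% and 40.6% of all genes. The median log2 difference of the 10 genes was 0.06 for LFD-MTX50 vs LFD, 0.30 for HFD-MTX50 vs HFD and 0.31 for HFD vs LFD. The medians over all genes were 0.10, -0.04 and 0.08. For the difference of the effects the medians were 0.15 and -0.11. Individual values of 2 groups did not overlap for 2 genes in LFD-MTX50 vs LFD (Cdkn1a and Phlda3; 29.1% of all genes), for 1 in HFD-MTX50 vs HFD (Mdm2; 11.4%) and for 1 in HFD vs LFD (Mdm2; 40.3%). A change of at least 2-fold in the means was seen for Cdkn1a alone, in both methotrexate comparisons, and neither passed the adjusted test.

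**Figure D1:**
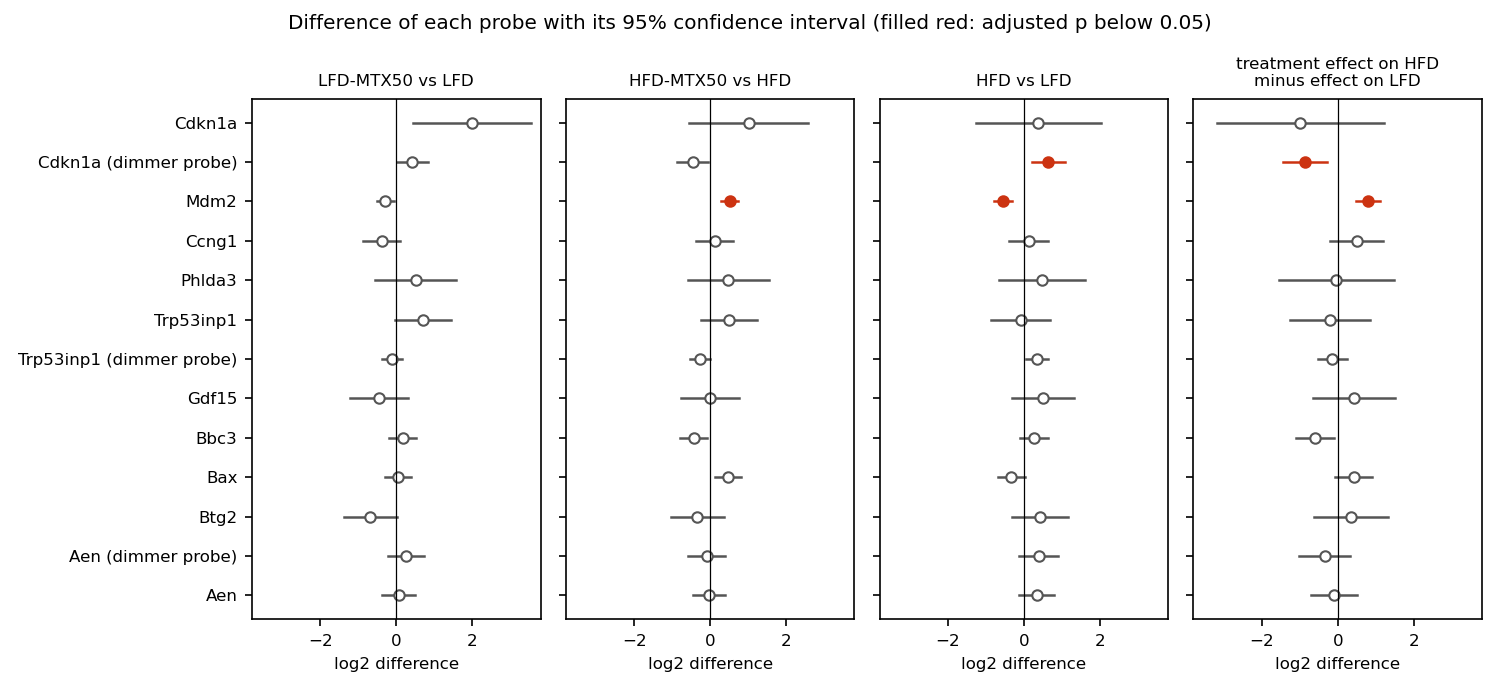
Log2 difference of each of the 13 probes (circles) with its 95% confidence interval (lines) in HFD and LFD comparisons; the right panel is the treatment effect on HFD minus that on LFD, and filled red marks an adjusted p below 0.05. Mdm2 is marked in 3 of the 4 panels, the dimmer Cdkn1a probe in the 2 that concern diet and the difference of effects, and the widest intervals belong to the brighter Cdkn1a probe.

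Mdm2, the ubiquitin ligase that keeps p53 low, was lower on the high fat diet and higher again in the treated high fat livers. Its level was 1.64, 1.62, 1.51 and 1.68 in LFD mice 1 to 4. It was 1.05, 1.02, 1.11 and 1.03 in the HFD mice. It was 1.66, 1.43, 1.41, 1.47 and 1.88 in HFD-MTX50 mice 1 to 5. The HFD livers were thus below every liver of both other groups, and they differed from each other by less than any other group did. HFD was 1.47-fold lower than LFD (log2 difference -0.56 ± 0.11 SE, adjusted p = 0.00507). HFD-MTX50 was 1.43-fold higher than HFD (0.52 ± 0.11, adjusted p = 0.0125). Both comparisons use the same 4 HFD livers. The level was 1.38, 1.38, 1.07, 1.53 and 1.27 in the LFD-MTX50 mice, where the difference from LFD was -0.29 ± 0.11 and missed the threshold (adjusted p = 0.0559), though it passed without mouse 4 of that group (-0.34, adjusted p = 0.0315) or without HFD-MTX50 mouse 5 (adjusted p = 0.0290). The treatment effect was 0.80 ± 0.15 higher on HFD than on LFD, with a 95% confidence interval of 0.48 to 1.13 and an adjusted p of 0.00545.

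The Mdm2 calls depended on the handling of slides, background and 1 control mouse. Under a random slide block, HFD vs LFD was -0.55 and no longer passed (adjusted p = 0.0626), in a fit where 1.95% of all genes did. HFD-MTX50 vs HFD (0.50, adjusted p = 0.0215) and the difference of the effects (0.80, adjusted p = 0.0382) still passed. On the slide that HFD and HFD-MTX50 shared, Mdm2 differed by 0.47 in the same direction (adjusted p = 0.216), in a fit where 0% of all genes passed. Without HFD mouse 4, HFD-MTX50 vs HFD was 0.51 (adjusted p = 0.0512), and without HFD-MTX50 mouse 1 or 5, the least correlated arrays, it still passed (0.49, adjusted p = 0.0177, and 0.44, adjusted p = 0.0223). With normexp background correction, HFD-MTX50 vs HFD was 0.33 (adjusted p = 0.381) and HFD vs LFD was -0.77 (adjusted p = 0.171), and the difference of the effects was 0.88 (adjusted p = 0.547). In these normexp fits 0%, 0.0102% and 0% of all genes passed. With only the 2 groups in the fit, HFD-MTX50 vs HFD kept its size (0.52) but not its call (adjusted p = 0.0790), where again 0% of all genes passed.

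**Figure D2:**
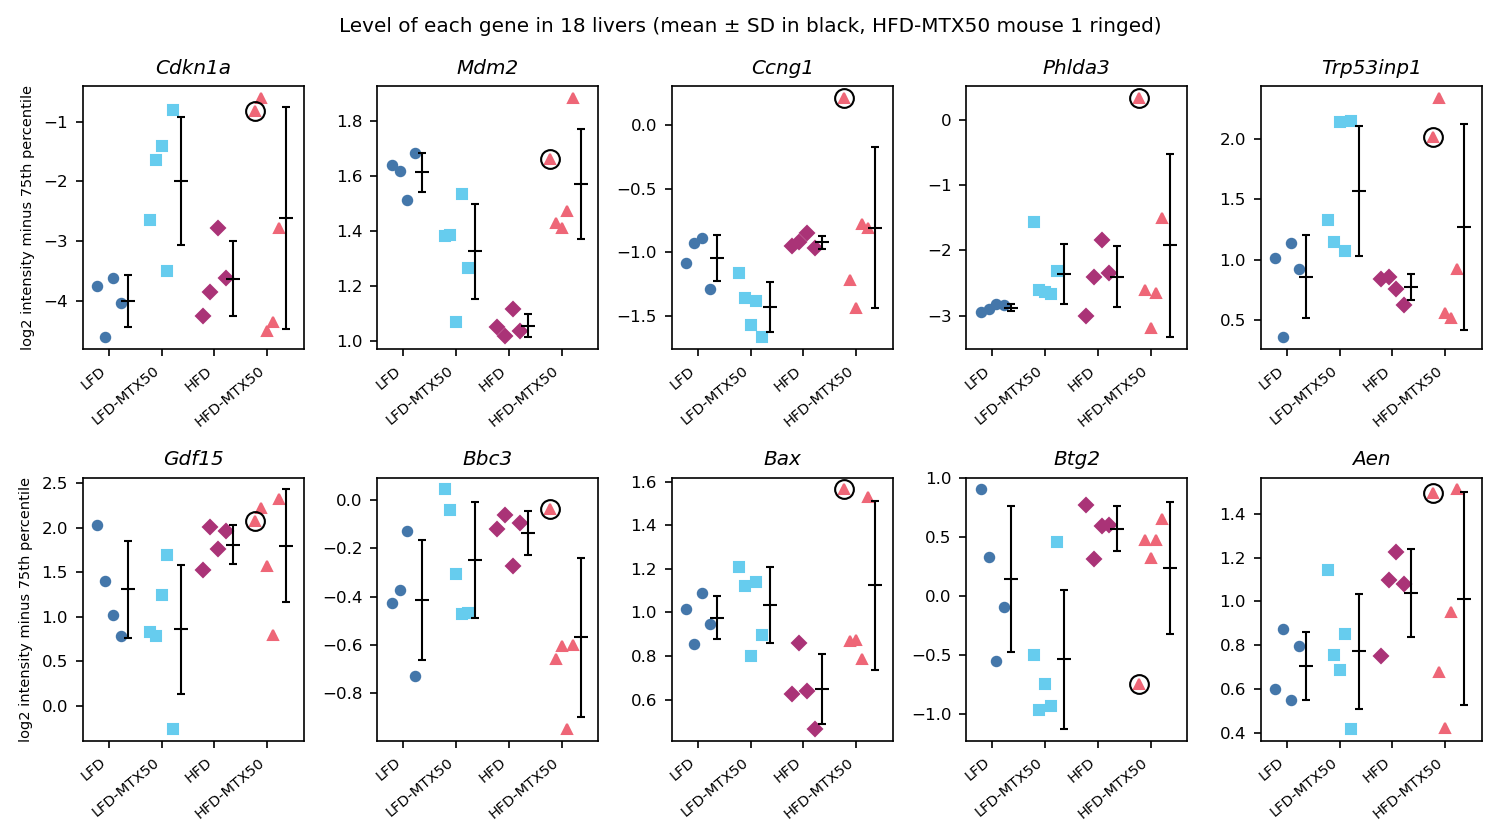
Level of each of the 10 genes (log2 intensity minus the 75th percentile of the array, brightest probe) in each mouse of the 4 groups, with the mean ± SD beside each group in black and HFD-MTX50 mouse 1 ringed; the vertical scale differs between panels. For Mdm2 the 4 HFD mice lie below all LFD and HFD-MTX50 mice, and the treated mice spread widely for Cdkn1a and Trp53inp1.

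Cdkn1a encodes p21, an inhibitor of cyclin-dependent kinases that arrests the cell cycle and is a classical p53 target. Its brighter probe was at -3.75, -4.60, -3.61 and -4.03 in the LFD mice. It was at -2.64, -1.64, -1.41, -3.50 and -0.80 in the LFD-MTX50 mice. All 5 treated livers lay above all 4 untreated ones, over a range of levels that was wide, with mouse 4 just above the highest LFD mouse. The mean was 4.00-fold higher (log2 difference 2.00 ± 0.74 SE, 95% confidence interval 0.44 to 3.56), and the adjusted p of 0.0509 lay just above the threshold. Over the 14 other settings that adjusted p ran from 0.0174 with only the 2 groups in the fit to 0.151 under a random slide block. It was 0.0265 without LFD-MTX50 mouse 4, and the difference also passed when mouse 1, 2, 3 or 4 of HFD-MTX50, which enter through the shared variance, was left out.

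On the high fat diet, the treated livers split for Cdkn1a. The brighter probe was at -4.25, -3.84, -2.78 and -3.61 in the HFD mice and at -0.82, -0.61, -4.49, -4.35 and -2.77 in HFD-MTX50 mice 1 to 5. Mice 1 and 2 lay above every HFD liver, mice 3 and 4 lay below every HFD liver, and mouse 5 was level with the highest HFD liver. The mean difference was 1.01 ± 0.74 (95% confidence interval -0.55 to 2.57, adjusted p = 0.357). The treatment effects on the 2 diets differed by -0.99 ± 1.04 (adjusted p = 0.494). HFD-MTX50 mice 1 and 2 lay on the slide shared with HFD mice, where the difference was 2.48 (adjusted p = 0.0861), and mice 3 to 5 lay on a slide of their own.

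A second probe for Cdkn1a, designed to another RefSeq transcript record of the gene, gave smaller differences. Its level was -3.93 to -4.15 in LFD, -3.20 to -3.90 in LFD-MTX50, -2.98 to -3.76 in HFD and -3.43 to -4.36 in HFD-MTX50. The HFD livers lay above all LFD livers on this probe, by 0.64 ± 0.20 (1.56-fold, adjusted p = 0.0293), whereas the brighter probe differed by 0.38 ± 0.78 (adjusted p = 0.735). The treatment effect on this probe was 0.42 ± 0.19 on LFD (adjusted p = 0.108) and -0.45 ± 0.19 on HFD (adjusted p = 0.121), and the difference between them passed (-0.87 ± 0.27, adjusted p = 0.0280). Both calls on this dimmer probe were lost under a random slide block (adjusted p = 0.146 and 0.101), and also with normexp and with quantile normalization. The normexp fits called 0.0102% and 0% of all genes in these 2 comparisons. The call for HFD vs LFD was also lost without LFD mouse 2, 3 or 4 or HFD mouse 3 or 4, and that for the difference of effects without LFD mouse 2, LFD-MTX50 mouse 3, HFD mouse 3 or 4 or HFD-MTX50 mouse 4. Over the 18 arrays the 2 Cdkn1a probes correlated at Pearson r = 0.46 and Spearman rho = 0.50, as a description of the same RNA samples read at 2 probes.

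**Figure D3:**
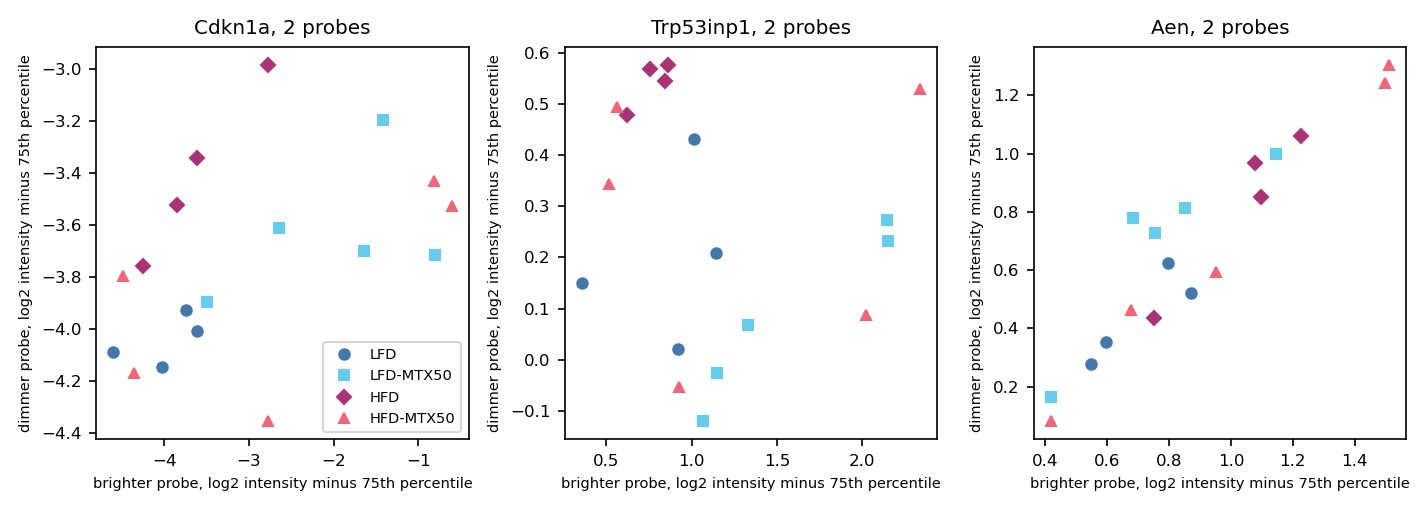
Level on the dimmer probe against level on the brighter probe (both log2 intensity minus the 75th percentile of the array) for the 3 genes with 2 probes, 1 point per mouse. The 2 Aen probes rise together (r = 0.94), those of Cdkn1a do so loosely (r = 0.46), and those of Trp53inp1 do not (r = -0.11).

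Trp53inp1 encodes a p53-induced nuclear protein that takes part in cell death and autophagy. Its brighter probe was at 1.01, 0.36, 1.14 and 0.92 in LFD and at 1.33, 1.15, 2.15, 1.07 and 2.15 in LFD-MTX50. It was at 0.84, 0.86, 0.76 and 0.62 in HFD and at 2.02, 2.34, 0.56, 0.51 and 0.92 in HFD-MTX50. The high values were those of mice 3 and 5 of LFD-MTX50 and of mice 1 and 2 of HFD-MTX50. The mean difference was 0.71 ± 0.35 on LFD (adjusted p = 0.130) and 0.50 ± 0.35 on HFD (adjusted p = 0.337). The dimmer probe, designed to the same transcript record, gave -0.12 and -0.26 for these comparisons, and the 2 probes correlated at r = -0.11 and rho = -0.28. The split of Trp53inp1 is therefore seen on 1 of its 2 probes.

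Across the 18 livers, Trp53inp1 followed Cdkn1a on their brighter probes more closely than any other 2 of the genes followed each other. Pearson's r was 0.91 and Spearman's rho was 0.90, each with a permutation p of 2e-05 (100000 permutations, 2-sided) and 0.0009 after adjustment over the 45 pairs of genes. r was 0.85 without HFD-MTX50 mouse 2 and LFD-MTX50 mouse 5, the 2 arrays farthest from the median of Cdkn1a, and 0.88 after each group's mean was subtracted. No slide held more than 4 arrays, too few for a value within a slide. The permutations, here and for the other pairs, shuffled all 18 livers freely without regard to group or slide. Their p-values do not separate a link between 2 genes from shifts shared by a group or slide. Pearson's r also passed in 3 other pairs. Phlda3 with Aen gave r = 0.77 (p = 5e-05, adjusted 0.0011) and rho = 0.64 (p = 0.0049, adjusted 0.045), with r = 0.66 without 2 arrays. Mdm2 with Bax gave r = 0.74 (p = 0.00042, adjusted 0.0058) and rho = 0.64 (p = 0.005, adjusted 0.045), with r = 0.68 without 2 arrays. Ccng1 with Aen gave r = 0.72 (p = 0.00052, adjusted 0.0058) and rho = 0.66 (adjusted 0.045), with r = 0.54 without 2 arrays. Cdkn1a with Phlda3 passed on rho alone (0.68, p = 0.0024, adjusted 0.045), with r = 0.52 (adjusted 0.12) and r = 0.69 without 2 arrays. The median r over the 45 pairs was 0.17 and 30 pairs were positive. After each group's mean was subtracted, r was 0.86 for Ccng1 with Phlda3, 0.73 for Phlda3 with Bax, 0.71 for Bax with Aen, 0.70 for Mdm2 with Aen and 0.68 for Ccng1 with Bax, values given without a test. For these pairs, without that subtraction, rho over the 18 livers was 0.30, 0.31, 0.12, 0.09 and -0.01. Without the 2 arrays farthest from the median of the first gene named, r was 0.33, 0.03, -0.25, 0.01 and -0.08.

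**Figure D4:**
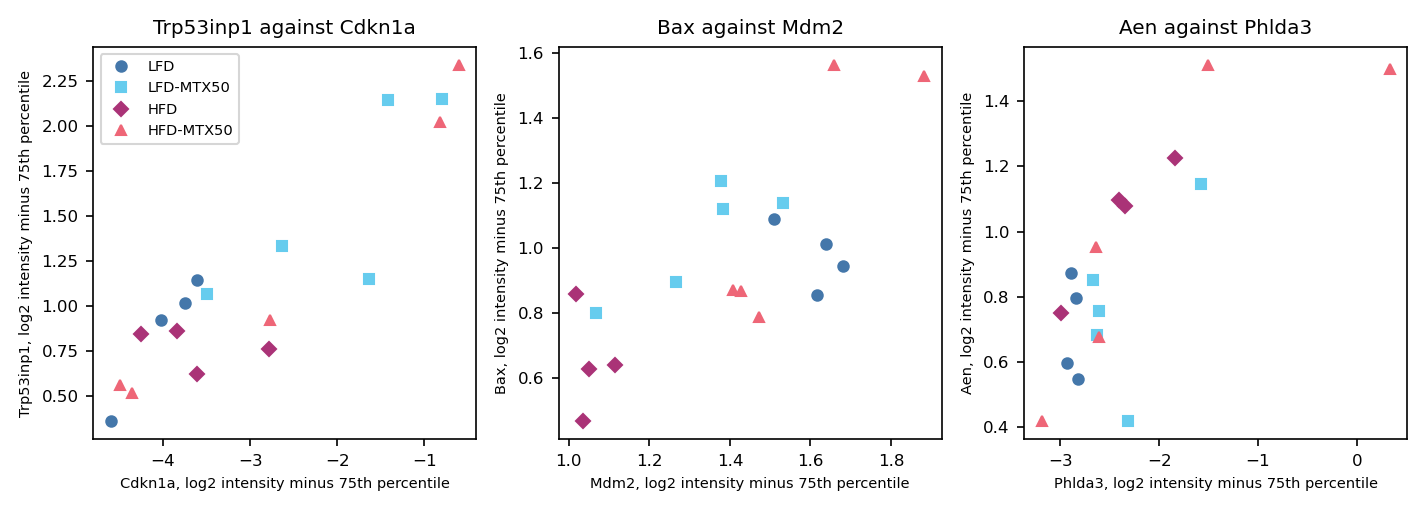
Level of 1 gene against another (log2 intensity minus the 75th percentile of the array, brightest probes) for Trp53inp1 and Cdkn1a, Bax and Mdm2, and Aen and Phlda3, 1 point per mouse with shape and colour for the group. Trp53inp1 rises with Cdkn1a over the 18 mice (r = 0.91), though not within the 4 HFD mice, and the Aen panel has 1 HFD-MTX50 mouse far to the right.

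The genes outside the p53 set whose levels were most like those of Cdkn1a over the 18 arrays were Map3k6 (r = 0.92), a kinase of stress signalling, Thbd (0.92), the thrombin receptor thrombomodulin, Megf9 (0.90), Rasgef1b (0.90) and Gja1 (0.89), a gap junction protein. These are the highest of all genes read and carry no test.

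Phlda3, Ccng1 and Gdf15 encode signalling proteins downstream of p53. Phlda3, which restrains the kinase Akt, was at -2.94, -2.89, -2.82 and -2.84 in LFD and at -1.57, -2.61, -2.63, -2.67 and -2.31 in LFD-MTX50. All treated livers lay above the untreated ones, but mouse 1 lay far from the rest, and the difference of 0.51 ± 0.51 did not pass (adjusted p = 0.451). It was at -3.00, -2.41, -1.84 and -2.35 in HFD and at 0.33, -2.61, -3.19, -2.64 and -1.51 in HFD-MTX50. HFD-MTX50 mouse 1 was the highest liver of the 18 and the difference was 0.47 ± 0.51 (adjusted p = 0.541).

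Ccng1, the cyclin G1 gene, was at -1.29 to -0.89 in LFD, -1.67 to -1.17 in LFD-MTX50 and -0.97 to -0.85 in HFD. In HFD-MTX50 it was at 0.21 in mouse 1 and -1.44 to -0.78 in the others. The difference was -0.38 ± 0.23 on LFD (adjusted p = 0.216, or 0.0496 without HFD-MTX50 mouse 1) and 0.12 ± 0.23 on HFD (adjusted p = 0.759). The treated and untreated livers overlapped on both diets.

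Gdf15, a circulating stress cytokine that acts on the brainstem to lower food intake, passed in none of the 4 comparisons. It was at 1.31 ± 0.54 (SD, n = 4) in LFD, 0.86 ± 0.72 (n = 5) in LFD-MTX50, 1.81 ± 0.22 (n = 4) in HFD and 1.80 ± 0.63 (n = 5) in HFD-MTX50. The difference was -0.45 ± 0.36 SE for LFD-MTX50 vs LFD (adjusted p = 0.352). It was -0.01 ± 0.36 for HFD-MTX50 vs HFD, with a 95% confidence interval of -0.78 to 0.75 (adjusted p = 0.983). It was 0.50 ± 0.38 for HFD vs LFD (adjusted p = 0.319). The lowest liver was LFD-MTX50 mouse 5 at -0.26 and the highest HFD-MTX50 mouse 5 at 2.33. The genes most like it over the arrays were Camk2n2 (r = 0.78), Tex264 (0.76), H4c9 (0.75), Slc46a2 (0.73) and Hexa (0.72), a lysosomal hexosaminidase.

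Btg2, an antiproliferative immediate early gene that p53 also induces, was at 0.15 ± 0.62 (SD, n = 4) in LFD and -0.54 ± 0.59 (n = 5) in LFD-MTX50. It was at 0.57 ± 0.19 (n = 4) in HFD and 0.23 ± 0.56 (n = 5) in HFD-MTX50. The difference on LFD was -0.68 ± 0.33 SE (adjusted p = 0.122), and it passed without LFD-MTX50 mouse 5, the only 1 of its group above 0 (-0.93, adjusted p = 0.032). In HFD-MTX50, mouse 1 was at -0.74 and mice 2 to 5 were at 0.32 to 0.65. The difference there was -0.34 ± 0.33 (adjusted p = 0.501).

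Bax, Bbc3 and Aen belong to the death branch. Bax, which permeabilises the mitochondrial outer membrane, was at 1.01, 0.86, 1.09 and 0.95 in LFD and 1.21, 1.12, 0.80, 1.14 and 0.90 in LFD-MTX50. It was at 0.63, 0.86, 0.64 and 0.47 in HFD and 1.56, 0.87, 0.87, 0.79 and 1.53 in HFD-MTX50. HFD-MTX50 mice 1 and 5 were the 2 highest livers of the 18. HFD-MTX50 vs HFD gave 0.48 ± 0.16 (adjusted p = 0.0631), and the adjusted p was 0.0452 without HFD-MTX50 mouse 2 and 0.0425 without mouse 4. Mice on the shared slide differed by 0.66 (adjusted p = 0.260). LFD-MTX50 vs LFD gave 0.06 ± 0.16 (adjusted p = 0.809).

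Bbc3 encodes PUMA, a BH3-only activator of apoptosis. It was at -0.73 to -0.13 in LFD, -0.47 to 0.05 in LFD-MTX50, -0.27 to -0.06 in HFD and -0.95 to -0.03 in HFD-MTX50. In the treated high fat livers, mouse 1 was at -0.03 and the other 4 lay below every HFD liver. The difference there was -0.43 ± 0.17 (adjusted p = 0.0899), and without mouse 1 it was -0.57 and passed (adjusted p = 0.0231). The effect on HFD minus that on LFD was -0.60 ± 0.23 (adjusted p = 0.0635), and it passed when LFD mouse 3, mouse 4 of LFD-MTX50 or mouse 1 of HFD-MTX50 was left out, with adjusted p down to 0.0128. Bbc3 and Bax therefore had differences of opposite sign in HFD-MTX50 vs HFD, and neither passed over all mice.

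Aen, a nuclease that p53 induces in apoptosis, also passed in none of the 4 comparisons. Its brighter probe was at 0.70 ± 0.16 (SD, n = 4) in LFD, 0.77 ± 0.26 (n = 5) in LFD-MTX50, 1.04 ± 0.20 (n = 4) in HFD and 1.01 ± 0.49 (n = 5) in HFD-MTX50. The treatment differences were 0.07 ± 0.20 SE on LFD (adjusted p = 0.820) and -0.03 ± 0.20 on HFD (adjusted p = 0.942, 95% confidence interval -0.46 to 0.41). The 2 probes of Aen agreed closely, at r = 0.94 and rho = 0.92.

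**Figure D5:**
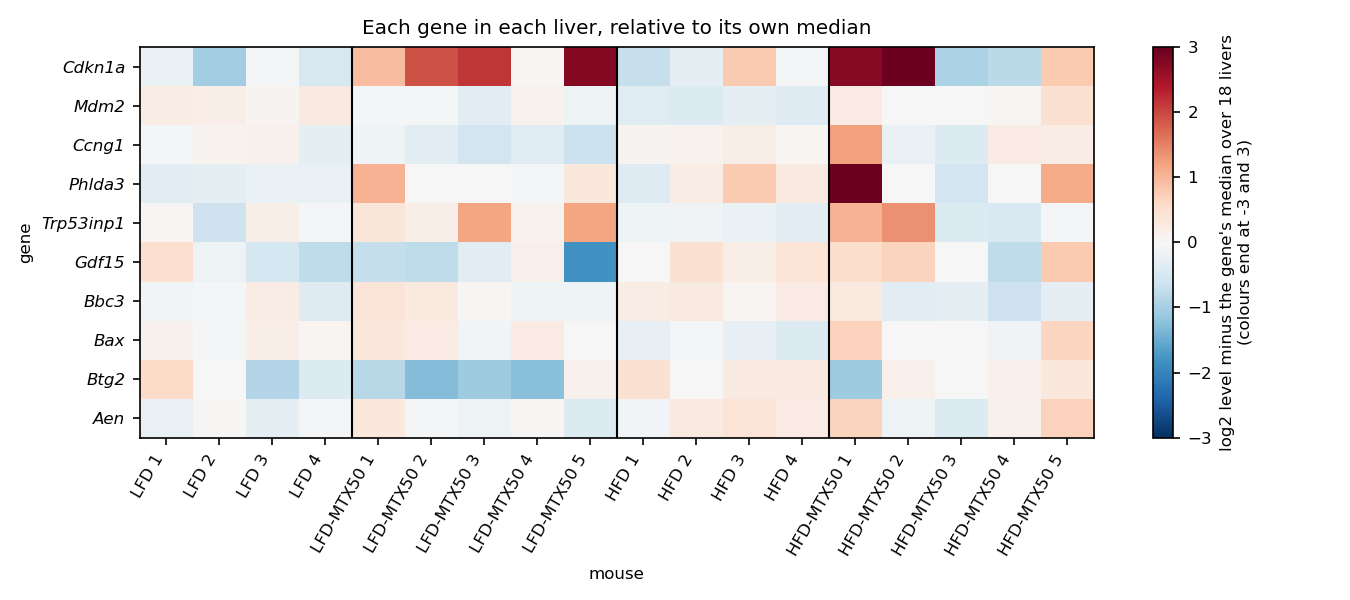
Each gene (rows, brightest probe) in each mouse (columns, black lines between groups) as the log2 level minus the gene's median over the 18 livers, with red above and blue below the median and colours ending at -3 and 3. Cdkn1a and Trp53inp1 are reddest in HFD-MTX50 mouse 2, and Phlda3 and Ccng1 are reddest in HFD-MTX50 mouse 1.

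HFD-MTX50 mouse 1, singled out after its values were seen, was the highest of the 18 livers for Ccng1, Phlda3 and Bax, 3 of the 10 genes. It was also the highest for 8 of 38 other p53 targets, against 7.33% of all genes. Among these 8, Zmat3, an RNA-binding p53 target, was at -0.86 against -2.55 to -1.79 in the other 17 livers, and Rps27l, a ribosomal protein homologue, was at 4.58 against 3.77 to 4.17. Other targets were low in mouse 1, which ranked 16 of 18 for Btg2, Xpc and Ei24 and 17 for Dcxr and Pltp. The median difference of mouse 1 from the other mice of its group was 0.69 over the 10 genes, 0.24 over the other p53 targets and 0.07 over all genes. HFD-MTX50 mouse 5 was the highest liver for 3 of the 10 genes as well, but for 9.66% of all genes, and mouse 2 for 2 of them and 5.15%. In mouse 1, the summed level of 11 ATF4 stress genes was 5.61, the highest of the 18, and that of the hepatocyte markers was 8.76, the lowest. Its stress gene Ddit3 was at 0.61, against -2.44 to -1.49 in all other livers. The part of these values in the p53 target levels was not tested.

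Of 12 genes that control p53, 4 passed in LFD-MTX50 vs LFD (3 higher, 1 lower), where 28.1% of all genes did, and 1 in HFD-MTX50 vs HFD, where 11% did. The 4 calls in LFD-MTX50 vs LFD were lost under a random slide block, in a fit where 1.73% of all genes passed. Trp53, which encodes p53 itself, was at -3.32 to -3.04 in LFD and -2.93 to -2.07 in LFD-MTX50, without overlap, and rose by 0.82 ± 0.23 (adjusted p = 0.0176). It gave -0.05 ± 0.23 in HFD-MTX50 vs HFD (adjusted p = 0.908), where HFD-MTX50 mice 2 and 3 were at -2.07 and -2.10 and the other 3 at -3.16 to -3.06. The difference of these effects was -0.87 ± 0.33 (adjusted p = 0.0571). Mdm4, an inhibitor of p53 related to Mdm2, rose by 0.36 ± 0.12 in LFD-MTX50 (adjusted p = 0.0306) and gave 0.15 ± 0.12 in HFD-MTX50 (adjusted p = 0.396). Chek1, a checkpoint kinase, fell by 0.73 (adjusted p = 0.00644) and Trp63, a relative of Trp53, rose by 0.64 (adjusted p = 0.0302) in LFD-MTX50.

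Ppm1d, the phosphatase WIP1 that p53 induces and that dampens the damage response, was the 1 gene of the 12 in the control list to rise in HFD-MTX50. It was at -2.83, -2.93, -3.00 and -3.22 in HFD and -2.29, -2.33, -2.34, -2.38 and -2.52 in HFD-MTX50, a rise of 0.62 ± 0.11 (adjusted p = 0.0073). It was at -2.61 to -2.19 in LFD, and HFD was lower by 0.60 on the log2 scale (-0.60 ± 0.12, adjusted p = 0.00422). With normexp background correction the diet difference had the other sign (0.19). Like Mdm2, Ppm1d was thus lower in the HFD livers than in either neighbouring group, and both comparisons again share those 4 livers.

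With the 12 control genes included, 50 other genes of the p53 pathway were tested. Of these 50, 12 passed in LFD-MTX50 vs LFD (7 higher, 5 lower), which is 24% against 28.1% of all genes. In HFD-MTX50 vs HFD 5 passed (2 higher, 3 lower; 10% against 11%), and in HFD vs LFD 8 passed (2 higher, 6 lower; 16% against 28.3%). The difference of the effects passed for 9 genes (5 higher, 4 lower; 18% against 26.8%). The median log2 differences were -0.01, -0.03, 0.02 and 0.01. Under a random slide block, 0 of the 12, 5 of the 5, 0 of the 8 and 0 of the 9 calls held. In those fits 1.73%, 9.48%, 1.95% and 6.37% of all genes passed. The 5 calls in HFD-MTX50 vs HFD fell to 0 under a fixed slide block or with only the 2 groups in the fit, and to 1 (Ppm1d) under a replicate block. These 3 fits called 0%, 0% and 5.17% of all genes. With normexp 2 of the 12 held (Chek1 and Pltp) and 0 of the others. Normexp called 1.73%, 0%, 0.0102% and 0% of all genes in the 4 comparisons, in the order above.

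The counts by role stand where 28.1% of all genes passed in LFD-MTX50 vs LFD and 11% in HFD-MTX50 vs HFD. No LFD-MTX50 vs LFD call among these targets held under a random slide block, in a fit where 1.73% of all genes passed. Of the 10 other arrest and signalling targets tested, 1 rose in LFD-MTX50 (Sertad1, 0.57) and 1 fell (Plk2, a kinase, -0.86, or 0.28 with normexp). In HFD-MTX50 vs HFD 0 of these 10 passed. Of 12 other death targets, 0 passed in LFD-MTX50 vs LFD. In HFD-MTX50 vs HFD, Pmaip1, which encodes the BH3-only protein NOXA, rose by 0.90 ± 0.24 (adjusted p = 0.0302) and Triap1, an inhibitor of apoptosis, fell by 0.38. Pmaip1 was at -5.33 to -4.87 in HFD and -4.83 to -3.43 in HFD-MTX50, with mouse 1 highest. Of 7 targets for nucleotide supply and repair, Polk, a translesion polymerase (0.54), and Ddb2, a sensor of ultraviolet damage (0.28), rose in LFD-MTX50, and Xpc, of the same repair pathway, fell by 0.35 in HFD-MTX50. Of 9 metabolic targets, 1 rose and 3 fell in LFD-MTX50: Pltp, a lipid transfer protein (-1.70), Aldh4a1 (-0.66) and Sco2 (-0.50) were lower and Dram1, an autophagy gene (0.76), was higher. Sco2, a cytochrome oxidase assembly factor, was also the 1 that fell in HFD-MTX50 (-0.48, adjusted p = 0.0411).

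The machinery that senses and repairs DNA damage, a list of 18 genes of which 17 were tested, gave 3 calls in LFD-MTX50 vs LFD, against 28.1% of all genes: Ercc1, a repair nuclease subunit, rose by 0.34, Dut, which clears dUTP, fell by 0.71 and Parp1 fell by 0.33. All 3 calls were lost under a random slide block and with normexp. Each of these 2 fits called 1.73% of all genes. In HFD-MTX50 vs HFD 1 of the 17 passed, against 11% of all genes, Mgmt, an alkyl-damage repair protein, which fell by 0.68. Of 14 proliferation genes, 2 rose and 1 fell in LFD-MTX50 and 0 passed in HFD-MTX50 vs HFD, against the same 28.1% and 11%. The LFD-MTX50 calls were all lost under a random slide block and with normexp, where again 1.73% of all genes passed. In HFD vs LFD all 14 proliferation genes had differences above 0 and 3 passed, against 28.3% of all genes, led by Mcm5, a replication helicase subunit (0.71). Slide and group cannot be told apart in that comparison. Of the 17 repair genes, 3 passed in HFD vs LFD, against 28.3% of all genes: Mgmt (0.59) and Ercc1 (0.34) were higher, and Tk1, thymidine kinase, was lower (-0.93, adjusted p = 0.0258).

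Other stress programmes were read beside these genes, where 28.1% of all genes passed in LFD-MTX50 vs LFD and 11% in HFD-MTX50 vs HFD. Of 11 genes of the ATF4 stress response, 1 rose in LFD-MTX50 (Chac1, a glutathione-degrading enzyme, 1.40) and 1 in HFD-MTX50 (Asns, asparagine synthetase, 1.27, adjusted p = 0.0146), where all 11 differences were above 0. Asns gave 0.69 in LFD-MTX50 (adjusted p = 0.0728). Ddit3 differed by -0.13 (adjusted p = 0.848) and 0.19 (adjusted p = 0.803) on the 2 diets, and Fgf21, a liver hormone of fasting and stress, by -0.18 (adjusted p = 0.881) and 0.11 (adjusted p = 0.942). Of 10 immediate early genes, 5 rose in LFD-MTX50, with Egr1 (1.68), Ier3 (1.10), Junb (1.06) and Ier2 (0.99) leading, and 1 in HFD-MTX50 (Ier3, 1.28). The calls of Egr1, Ier3, Junb and Ier2 in LFD-MTX50 vs LFD were lost under a random slide block and with normexp, where 1.73% of all genes passed in each. That of Egr1 held in 4 of the 18 fits that left out 1 array. Of 12 clock genes, 3 rose and 2 fell in LFD-MTX50, led by Ciart (3.85) and Tef (1.49), and 0 passed in HFD-MTX50 vs HFD. All 5 LFD-MTX50 calls were lost under a random slide block, where 1.73% of all genes passed. The part of these programmes in the p53 target levels was not tested.

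Markers of blood cells were read where 28.1% of all genes passed in LFD-MTX50 vs LFD and 11% in HFD-MTX50 vs HFD. In LFD-MTX50 vs LFD, 1 of 3 erythroid and 2 of 4 lymphocyte markers passed. In HFD-MTX50 vs HFD, 1 of 3 and 0 of 4 did. Of 5 neutrophil markers, 1 passed in LFD-MTX50 vs LFD and 0 in HFD-MTX50 vs HFD. Their summed level was -0.02 to 0.40 in LFD, 0.11 to 2.77 in LFD-MTX50, -0.01 to 1.00 in HFD and 0.19 to 5.78 in HFD-MTX50, where mice 1 to 5 were at 0.19, 0.79, 2.35, 3.63 and 5.78. The mice with high Cdkn1a on the high fat diet, 1 and 2, thus had the lowest neutrophil sums of their group. The 3 erythroid markers tested of 5 summed to 1.64 to 1.90 in LFD and -1.11 to 0.12 in LFD-MTX50, and Alas2, the heme synthesis enzyme of erythroid cells, fell by 2.99 on the log2 scale (adjusted p = 0.000893) while the differences of the other 2 were above 0 and did not pass. In HFD-MTX50 vs HFD, Epb42, a protein of the red cell membrane skeleton, was at least 2.45-fold higher (adjusted p = 0.0180), a bound set by the lowest signal well above background because it was well above background on 4 of 5 treated and 0 of 4 HFD arrays, and Alas2 gave -1.25 (adjusted p = 0.0733). The 3 markers summed to 1.52 to 1.88 in HFD, and in HFD-MTX50 mice 1 to 5 to -0.41, 0.28, 0.68, 1.65 and 1.89. The low sums of mice 1 and 2 stood beside their high Cdkn1a and Trp53inp1. Mice 1 and 2 lay on the slide shared with HFD and mice 3 to 5 on another, so these splits cannot be told apart from slide. The 6 macrophage markers summed to 5.44 to 5.88 in LFD, 4.90 to 5.25 in LFD-MTX50, 4.94 to 5.78 in HFD and 5.51 to 6.18 in HFD-MTX50. In LFD-MTX50 vs LFD, 2 of the 6 passed, both lower, but 3 differences were above 0 and 3 below. In HFD-MTX50 vs HFD 0 passed and all 6 differences were above 0. The part of these cells in the p53 target levels was not tested.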

How the data were processed

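Liver RNA of 18 mice was hybridised to 18 one-colour Agilent arrays, 1 per mouse. The sample records name Trizol and RNeasy extraction and a linear low-input amplification kit; RNeasy and Quick Amp stand in the methods. Per the file headers, the authors read spot intensity (linear scale) with Feature Extraction, version 10.7.3.1 in the submitters' processing notes, which subtracted background and trends within an array. The deposited intensity was not scaled between arrays.

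Intensities were put on the log2 scale here and reduced by the 75th percentile of each array over spots that are not controls. Outlier spots (124 to 294 per array) were left out, spots of a probe averaged, and probes kept if well above background on at least 4 arrays; 347 kept probes lack a value on some array. A RefSeq table (GRCm38.p6) named 28025 probes (71.1%) and 21153 genes. Probe coordinates were not used here. limma 3.58.1 in R 4.3.3 (statmod 1.5.0) fitted 1 model to the 4 groups, and p-values were adjusted over all kept probes (Benjamini-Hochberg). The procedure was tested on simulated data. The number of arrays limits the precision.

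The genes and lists were chosen with earlier results of these data known. Named are all probes of the 10 genes, at most 4 called genes of each other list per comparison (those with the largest change), Trp53, Mdm4, Fgf21, Ddit3 and Asns, and the 5 genes most correlated with Cdkn1a and with Gdf15. Zmat3, Rps27l and HFD-MTX50 mouse 1 were singled out after their values were seen. A summed level is the log2 of a list's summed linear signal. Of other cell type markers, LFD-MTX50 vs LFD called 2 of 4 lymphocyte (1 further marker is not reported here), 1 of 6 stellate, 0 of 5 endothelial and 1 of 4 bile duct genes, and HFD-MTX50 vs HFD called 0, 1, 1 and 0. The labels do not pair mice that share a replicate number, and their deviations correlated at -0.31 to 0.25. Alternatives were other background correction, scaling, filters, value source, variance model, probe averaging, slide and replicate blocks, 2-group fits, 2-fold call rules and leaving out each array.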

Additional observations from a re-analysis of the deposited data

Results flagged for a closer look

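The treatment effect differed between the diets for Mdm2. The difference of the effects was 0.80 on the log2 scale by the interaction term of the limma fit (adjusted p = 0.00545), and with normexp background correction it was 0.88 and did not pass (adjusted p = 0.547). In that normexp fit 0% of all genes passed.

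On the dimmer Cdkn1a probe the difference of the effects was -0.87 (adjusted p = 0.0280; lost under a random slide block, normexp and quantile normalization), while on the brighter probe it was -0.99 with an adjusted p of 0.494.

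Btg2 in HFD-MTX50 mouse 1 lay far below the other 4 mice of its group. Its gap to the nearest of them was 0.765 of the range of the group, above the critical value of 0.710 for 5 samples. This was 1 of 52 groups of values examined, and chance alone gives about 5% of them.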

How the results depend on the processing

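Over 15 other settings and the omission of each of the 18 arrays, 1404 values of the 10 genes were recomputed. Direction and side of the threshold were kept in 1341, 33 lost their call, 30 gained one and 0 called values reversed; 35 uncalled values changed sign. The number of the 10 genes called in LFD-MTX50 vs LFD (0) became 1 with normexp, with median scaling on probes above background everywhere, with the value table of the series, with probes well above background on all 18 arrays, with outlier spots kept and with the mean of a gene's probes, and 2 with an intensity trend and robust variances or with only the 2 groups. In that order, these fits called 1.73, 25.4, 27.3, 30.5, 27.8, 27.6, 28.6 and 31.7% of all genes. The number in HFD-MTX50 vs HFD (1) became 0 with normexp, with only the 2 groups, under a fixed slide block and under both call rules that require 2-fold (with an unadjusted p up to 0.015 or an adjusted p below 0.05), and 2 with scaling to the median. The shares of all genes there were 0, 0, 0, 1.32, 0.975 and 11.5%. The number in HFD vs LFD (1) became 0 with normexp, a random slide block and both 2-fold rules, and 2 with only the 2 groups. Here the shares of all genes were 0.0102, 1.95, 2.87, 2.86 and 41.7%. The number for the difference of the effects (1) became 0 with normexp and both 2-fold rules, where 0, 8.05 and 7.94% of all genes were called. Leaving out 1 array gave 0 to 2, 0 to 2, 1 to 1 and 1 to 2 genes. Those fits called 16.3 to 31.7%, 1.44 to 15.5%, 11.5 to 32% and 15.3 to 31.6% of all genes.

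The replicate numbers do not pair the mice. With the replicate block, LFD-MTX50 vs LFD called 1 of the 10 genes, the difference of the effects called 2, and the other comparisons kept their count of 1. Of all genes, 27.6% and 25.8% passed in the first 2, 5.17% in HFD-MTX50 vs HFD and 27.1% in HFD vs LFD.

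The share of all genes called ranged over the settings from 1.73 to 31.7% for LFD-MTX50 vs LFD, 0 to 14.1% for HFD-MTX50 vs HFD, 0.0102 to 41.7% for HFD vs LFD and 0 to 29.2% for the difference of the effects. The cause was not tested.

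Values of listed genes that were called in at least 1 of the fits compared reversed as follows. With normexp, LFD-MTX50 vs LFD gave 0.28 for Plk2 and 0.29 for Parp1, and HFD vs LFD gave 0.19 for Ppm1d, 0.60 for Rrm2b and 0.13 for Ercc5. With the mean of a gene's probes, LFD-MTX50 vs LFD gave 0.19 for Ccnb1 and -0.48 for Cdk1, HFD vs LFD gave 0.11 for Rrm2b, and the difference of the effects gave -0.23 for Rrm2b and -0.43 for Ccne1, which was not called in the report's own fit (0.03, adjusted p = 0.889). The cause was not tested.

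The planned normexp correction on the mean signal was not run because the files used here hold the median signal, which served instead and was chosen after seeing the data. Dim probes are limited by background; normexp moved the median of all genes to 0.47 in LFD-MTX50 vs LFD, 0.38 in HFD vs LFD and 0.39 in HFD-MTX50 vs HFD.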
